A study of Eriocheir sinensis with 9 samples.

Results

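Among the eyestalk transcripts of the Chinese mitten crab, Eriocheir sinensis, 200 isoforms stood level between 22 and 27 °C and were higher in every library at 32 °C. They were picked from 101114 isoforms tested, out of 267789 in the deposited table. Abundance was given in FPKM, a unit in which fragment counts are adjusted for transcript length and library size. The members were chosen by their own values on the log2(FPKM + 1) scale. The lower step, the mean at 27 °C minus the mean at 22 °C, had to lie within 0.5 of 0. The upper step, the mean at 32 °C minus the mean at 27 °C, had to reach 1.5. All 3 libraries at 32 °C also had to lie above all 6 cooler libraries. The 3 conditions were met by 214 isoforms, and the 200 with the largest upper step were kept, which leaves out 14. Because these values chose the members, their levels and steps are a description and carry no test of warming.

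The libraries came from the eyestalk of wild-type crabs between molts, acclimated at 25 °C and then assigned to temperatures, with 16 crabs in each of 3 parallel replicates. Libraries at 22, 27 and 32 °C were analysed, 3 at each. The temperature was read from the library titles, since the treatment field calls all 9 untreated, and the labels give neither the length of exposure nor the number of crabs behind a library. The spread between libraries may therefore be partly technical. The series' design text names muscle and the sample labels name eyestalk, and without gene names no tissue marker could be read to check this.

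The eyestalk of a decapod holds the compound eye, the optic ganglia and a neurosecretory centre formed by the X-organ with the sinus gland, which releases peptide hormones that act on molting, pigment, blood sugar and reproduction. Crabs do not hold their body temperature constant, so warm water warms every tissue. In animals in general, a strong heat load induces chaperone genes through heat shock factor, and it can also change splicing, so that transcripts of the same gene move apart. Whether any member belongs to such a gene cannot be read here: the table numbers its isoforms and names none, and 0 identifiers were found in the gene table for assembly ASM2467909v1. Each isoform is counted here as 1 entry, and members may share a gene.

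In the 22 and 27 °C libraries the median member was scarce, and at 32 °C it reached a moderate level. The members' median abundance was 0.635, 0.445 and 0.685 FPKM in replicates 1, 2 and 3 at 22 °C. In the 27 °C libraries it was 0.505, 0.71 and 0.5 FPKM. In the 32 °C libraries it was 7.55, 10.48 and 9.38 FPKM. In whole eyestalk a change in the RNA per cell and a change in the number of cells of a type cannot be told apart. Over all tested isoforms the library medians ran only from 2.01 to 2.53 FPKM. The members' median thus lay below this level in each cooler library and above it in each library at 32 °C, as the conditions favour. Some members were abundant in the cooler libraries too, as given below for those above 0 in all of them. The median upper step was 2.02, with a range of 1.55 to 5.68, against 0.01 for all tested isoforms. The lower step was above 0 in 84 members, below 0 in 88 and exactly 0 in 28. Together the members held 0.0314% ± 0.00496 of summed FPKM at 22 °C (SD, n = 3). They held 0.0333% ± 0.00263 at 27 °C (SD, n = 3), and at 32 °C the share was 0.198% ± 0.0530 (SD, n = 3). By library it was 0.148% in replicate 1, 0.253% in replicate 2 and 0.192% in replicate 3.

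**Figure D1:**
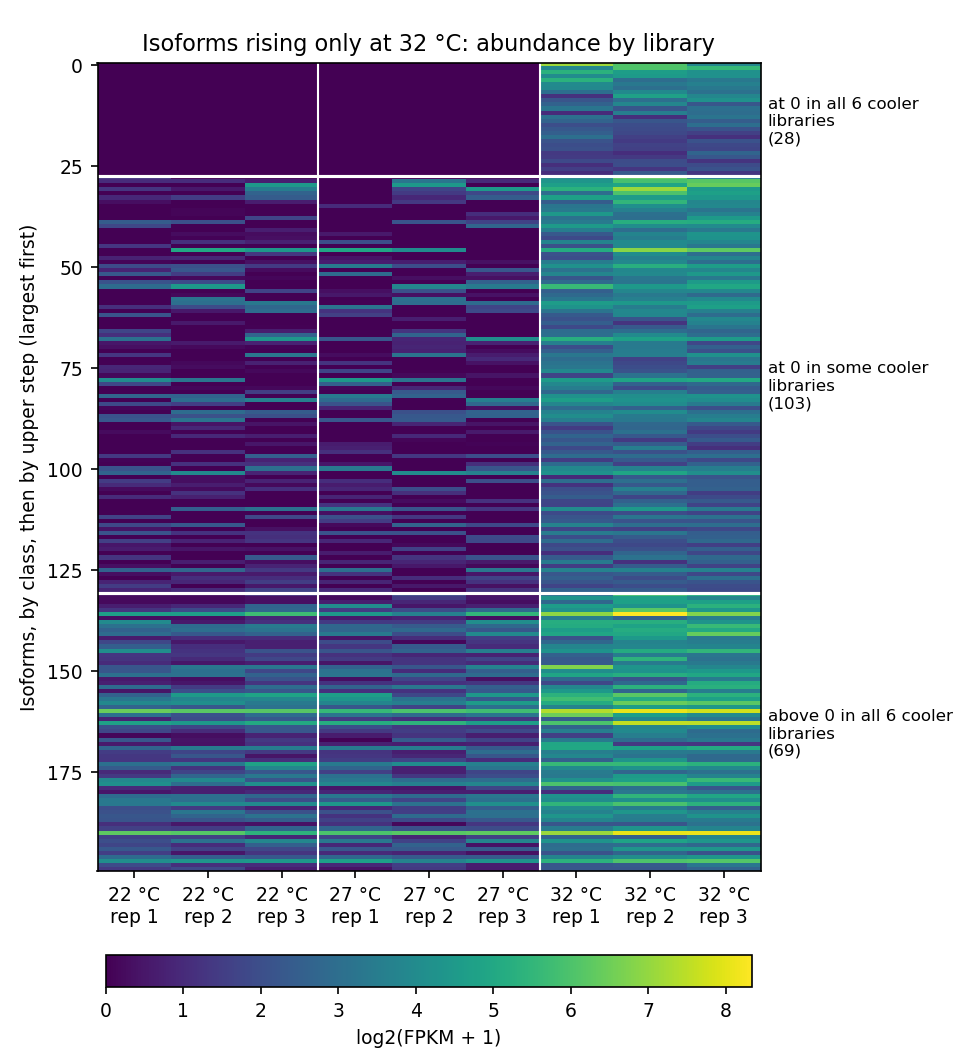
Abundance of the 200 isoforms (rows) in the 9 libraries (columns), colour giving log2(FPKM + 1); rows are grouped by how many cooler libraries list them at 0 and sorted by upper step. The 3 columns at 32 °C are brighter in every row, and the cooler columns are all at 0 in 28 rows, partly at 0 in 103 and above 0 throughout in 69.

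**Figure D2:**
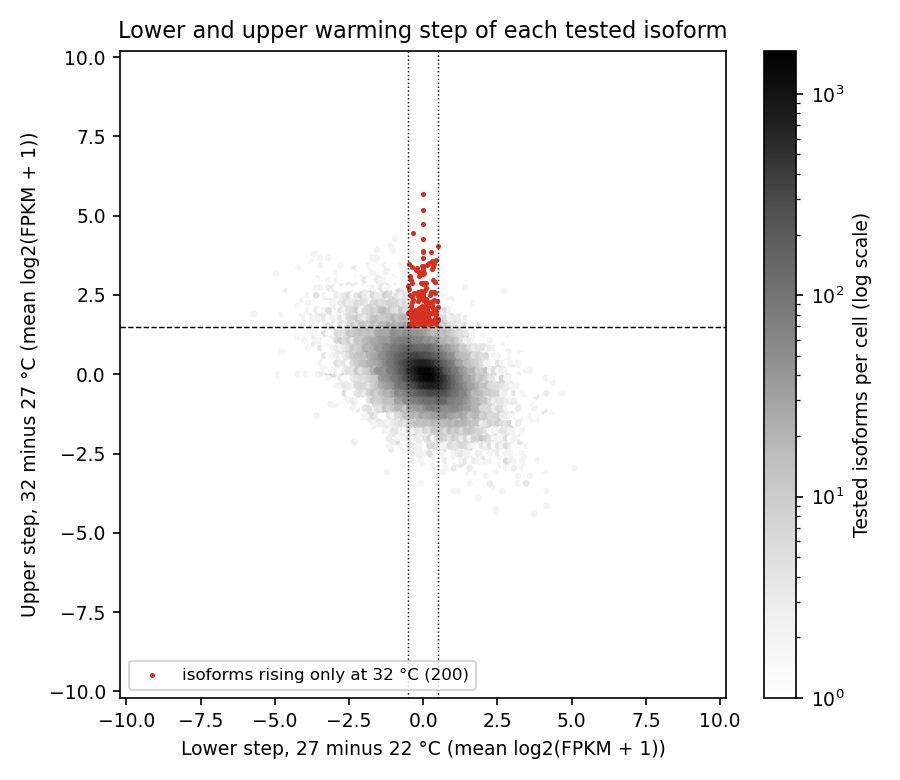
Lower step (horizontal) and upper step (vertical) of every tested isoform in log2(FPKM + 1), with grey cells for the number of isoforms and red points for the 200 members; dotted and dashed lines mark 0.5 and 1.5. The members form a narrow column above 1.5, and both axes share the 27 °C libraries, with opposite sign.

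The group mean at 32 °C lay between 2 and 5 FPKM in 47 members, between 5 and 10 in 56, between 10 and 50 in 87 and at 50 or more in 10. Of all tested isoforms 40.6% were below 2 FPKM at this temperature. No member was, which an upper step of at least 1.55 nearly imposes. The 10 most abundant members held 31.7% of the members' summed mean at 32 °C, and the 27 most abundant held 50.9%.

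The members fell into 3 classes by how they were listed in the cooler libraries. The first class, 28 members, was listed at 0 in all 6 libraries at 22 and 27 °C. Only 31 of all tested isoforms were so listed. An isoform at 0 in every cooler library passes the filter on low values only if all 3 libraries at 32 °C reach 1 FPKM. These 28 had a median mean of 5.05 FPKM at 32 °C, with a range of 2.24 to 72.6. A value of 0 in an FPKM table may also be a failed estimate, so no fold change is given for them.

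Isoform_40783, given as the largest upper step in this class, was listed at 0 in all 6 cooler libraries and stood at 138.55, 65.62 and 13.6 FPKM in replicates 1, 2 and 3 at 32 °C. Its lowest library at 32 °C was still above the median member, and replicate 1 was more than 10 times replicate 3. The member with the next largest upper step in the class stood at 13.85, 64.91 and 46.73 FPKM at 32 °C, with replicate 1 the lowest. The third stood at 39.39, 23.82 and 17.72 FPKM, and the fourth at 15.38, 22.58 and 17.58 FPKM. The order of the 3 libraries thus differed between these 4 isoforms, and no library was the highest in all of them.

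The second class, 69 members, was above 0 in all 6 cooler libraries, as were 77.6% of all tested isoforms. It was the most abundant class, with a median mean of 16.2 FPKM at 32 °C and of 3.43 FPKM over the cooler libraries. For each of these members the mean at 32 °C could be divided by the mean of the 6 cooler libraries, and the median ratio was 4.62, with a range of 2.64 to 50.9. Isoform_17764, given as the largest upper step in this class, stood at 0.29, 0.29 and 1.16 FPKM in the 22 °C libraries. In the 27 °C libraries it had 0.31, 2.58 and 0.31 FPKM, and 7.36, 59.34 and 36.32 FPKM in those at 32 °C. All 3 libraries at 32 °C lay above the cooler ones, with replicate 1 well below the others.

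The next 3 members of this class by upper step had different margins. The first of them stood at 0.16 to 1.67 FPKM over the 6 cooler libraries and at 19.43, 25.88 and 13.03 FPKM at 32 °C. The next stood at 0.13 to 0.86 FPKM in the cooler libraries and at 5.91, 25.76 and 25.57 FPKM at 32 °C. The last reached 15.51 FPKM in replicate 1 at 27 °C, with 0.43 to 5.39 FPKM in the other cooler libraries, and stood at 23.7, 18.31 and 39.2 FPKM at 32 °C. The margin of that last member over its highest cooler library was therefore small, although its upper step was 2.97. The most abundant member of all had 75.7, 68.94 and 41.2 FPKM in the 22 °C libraries and 61.74, 71.09 and 76.9 FPKM in those at 27 °C. In the 32 °C libraries it had 134.51, 267.2 and 273.99 FPKM. It was thus already abundant at the cooler temperatures and had an upper step of 1.61, close to the threshold.

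**Figure D3:**
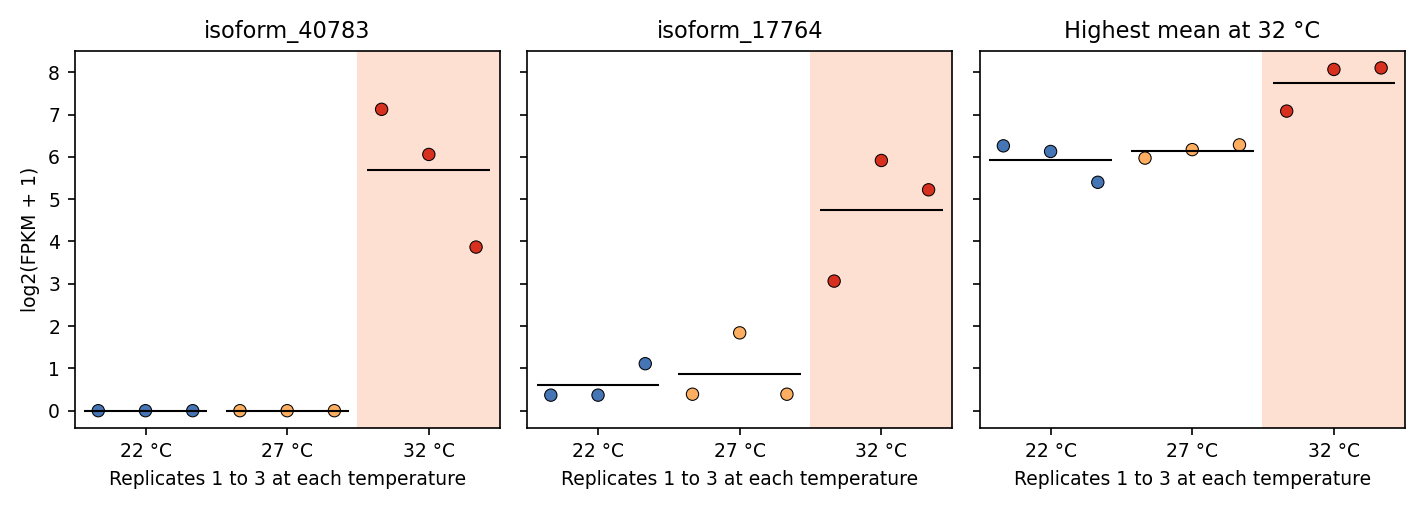
log2(FPKM + 1) of isoform_40783, isoform_17764 and the most abundant member in each of the 9 libraries, with replicates 1 to 3 from left to right at each temperature and a line at each group mean. The points at 32 °C (shaded) lie above all cooler points in each panel and differ among themselves by several log2 units in the first 2 panels.

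The third class, 103 members, was listed at 0 in between 1 and 5 of the cooler libraries, compared with 22.4% of all tested isoforms. Its median mean was 7.40 FPKM at 32 °C. Within this class a cooler temperature could hold both a 0 and a clear signal. In 31 of the 200 members at least 1 library at 22 °C was at 0 while another reached 2 FPKM, and in 43 members this was so at 27 °C. The corresponding shares were 15.5 and 21.5% of the members, against 8.83 and 9.78% of all tested isoforms.

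The margin between 32 °C and the cooler libraries varied widely. In the 172 members with any cooler value above 0, the lowest library at 32 °C divided by the highest cooler library had a median of 1.71. That ratio reached 2 in 67 members and 5 in 19, and was below 1.2 in 34. The condition that all 3 libraries at 32 °C lie above all 6 cooler ones was met by 3.55% of all tested isoforms. The reverse, all 3 below, was met by 2.17%.

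The 3 libraries at 32 °C also differed among themselves. The highest divided by the lowest value at 32 °C had a median of 2.24 over the members and exceeded 2 in 122 of them, 5 in 23 and 10 in 6. Among the 59395 tested isoforms with at least 1 FPKM in all 3 libraries at 32 °C, as all 200 members had, the median was 1.68 and 34.8% exceeded 2, against 61.0% of the members. Replicate 2 was the highest of the 3 in 93 members (46.5%) and in 38.7% of all tested isoforms. Replicate 1 was the lowest in 88 members (44.0%) and in 42.5% of all tested isoforms. Ties for the lowest were credited to the lower replicate number, which can only raise the share of replicate 1. Libraries tied without any signal can occur among all tested isoforms but not among the members. The shares for the lowest library are therefore not compared. The median-of-ratios factor, a measure of the general level of a library, was 1.03, 1.13 and 1.06 for replicates 1, 2 and 3 at 32 °C and 0.900 to 1.09 for the cooler libraries. Its part in the choice of members was not tested beyond the other scalings: 170 of the 200 met the conditions after dividing by these factors, 187 after quantile normalization and 139 after rescaling to TPM.

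**Figure D4:**
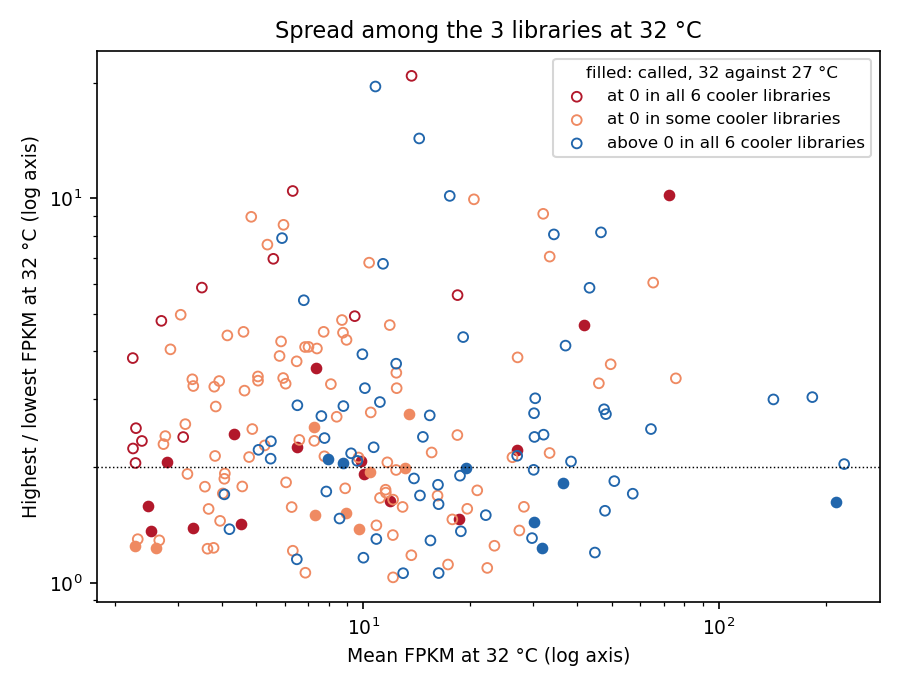
Highest divided by lowest FPKM at 32 °C (vertical, log axis) against mean FPKM at 32 °C (horizontal, log axis) for the 200 members, coloured by their listing in the cooler libraries; filled points passed the limma test of 32 against 27 °C and the dotted line marks a ratio of 2. Of the 200 points 122 lie above that line, in all 3 classes.

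Both step conditions were met by 531 isoforms, of which 317 did not have all 3 libraries at 32 °C above all cooler ones. Replicate 1 was the lowest library at 32 °C in 46.4% of the 317, against 42.5% over all tested isoforms. In both, ties were credited to the lower replicate number, as above, and how often they occurred was not counted. In 201 of the 317 a single library at 32 °C was at or below the highest cooler value. That library was replicate 1 in 102, replicate 2 in 42 and replicate 3 in 57. When the conditions were applied to the 8 libraries other than replicate 1 at 32 °C, 512 isoforms met them, against 276 without replicate 2 and 318 without replicate 3.

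Libraries that took no part in the choice showed a smaller difference. The conditions were applied to 8 libraries at a time, and the left-out library at 32 °C was then read. It lay above all 6 cooler libraries in 172 of the 512 isoforms chosen without replicate 1 (33.6%), in 134 of the 276 chosen without replicate 2 (48.6%) and in 156 of the 318 chosen without replicate 3 (49.1%). The same library lay above all 6 in 14.9, 21.1 and 16.5% of all isoforms tested in these settings. Its median value minus the mean at 27 °C was 0.46, 1.02 and 1.01 on the log2(FPKM + 1) scale, whereas the upper step of the same isoforms in the libraries that chose them had a median of 1.87, 1.95 and 1.89. The left-out library was listed at 0 in 95, 49 and 39 of the chosen isoforms. With the filter lowered to 2 libraries the medians for the left-out library were 0.24, 0.81 and 0.85. In it 247, 130 and 130 of the 769, 442 and 510 chosen isoforms were at 0. It lay above all 6 cooler libraries in 33.8, 47.1 and 47.6% of them, against 14.7, 20.4 and 16.1% of all tested. The cooler libraries in this reading had helped to choose the isoforms, as ones with low cooler values.

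A reading free of that used 2 left-out libraries, 1 at 32 °C and 1 cooler, with the choice made on the other 7. This reading was added after the first had been seen. Of the 32 and 27 °C libraries 9 such pairs can be formed. Over them, between 284 and 516 isoforms were chosen, and the left-out 32 °C library was higher than the left-out 27 °C library in 49.0 to 62.2% of them, against 44.6 to 53.4% of all tested isoforms. The median difference ran from 0 to 0.40 over the pairs, and from -0.02 to 0.06 for all tested isoforms. A difference of 1.5 or more, the size set for the upper step, was seen in 12.8 to 29.2% of the chosen isoforms and a fall of that size in 7.69 to 13.7%. For all tested isoforms the shares were 4.76 to 7.65% and 4.37 to 6.19%. Against a left-out 22 °C library the median difference was 0 to 0.95 over the 9 pairs, and 0 to 0.19 for all tested isoforms. Between left-out 27 and 22 °C libraries it was 0 to 0.16, and 0 to 0.12 for all tested isoforms. With the filter lowered to 2 libraries, the left-out 32 °C library exceeded the 27 °C library in 42.7 to 51.7% of the chosen. For all tested isoforms the share was 43.6 to 52.1%, so the 2 ranges nearly coincided. Within most single pairs the share was still higher among the chosen, by differing amounts. With replicate 1 left out at both temperatures it was 49.6%, against 43.6% of all tested. With replicate 1 at 32 °C and replicate 3 at 27 °C left out it was lower, 42.7% against 45.8%. The 32 °C library was lower in 29.7 to 38.1% of the chosen, against 42.9 to 50.1% of all tested. The 2 libraries were tied in 92 to 172 of the chosen isoforms, against 13 to 32 with the filter at 3 libraries. A rise of 1.5 or more was seen in 13.3 to 27.0% of the chosen and a fall of that size in 9.28 to 12.6%. For all tested isoforms these shares were 4.84 to 7.60% and 4.47 to 6.19%. With the tied isoforms included, the middle of the 9 medians for 32 minus 27 °C was 0.0101 with this filter, against 0.22. For 32 minus 22 °C it was 0.04, against 0.34, and the highest was 0.46. The 9 pairs share libraries with each other, and no test was made of them.

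**Figure D5:**
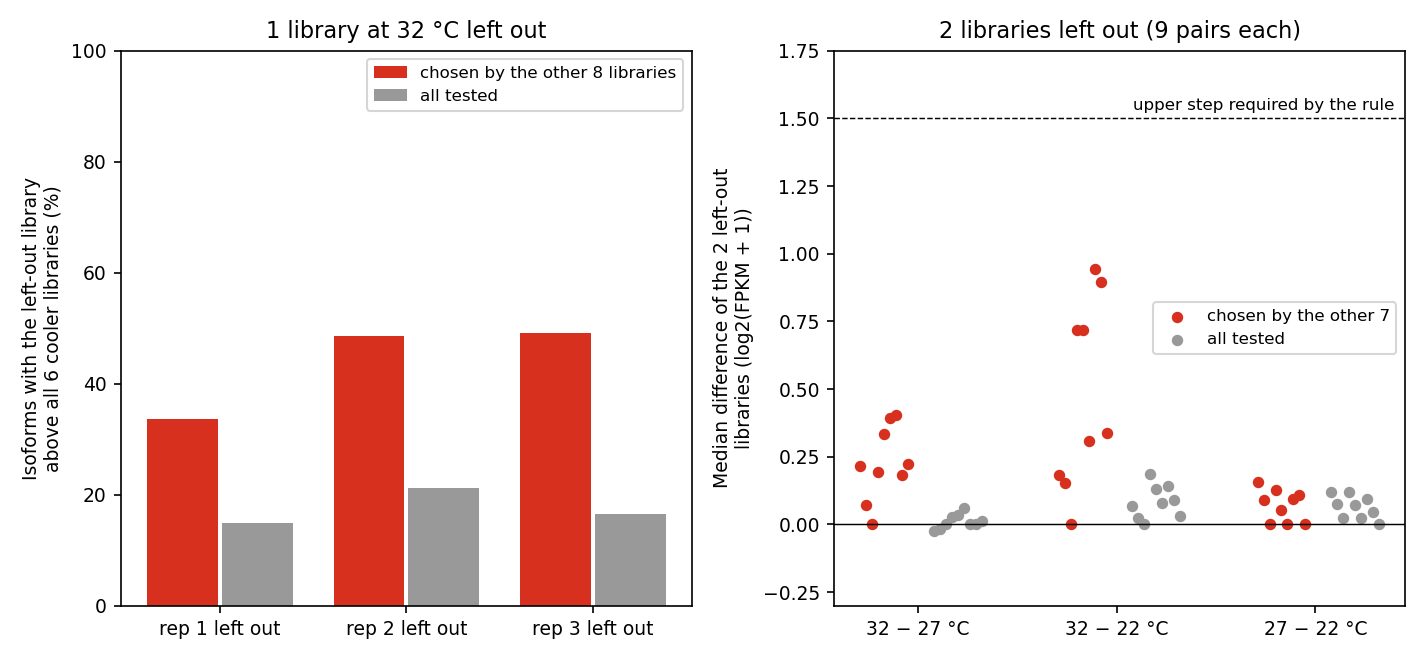
Left, percentage of isoforms whose left-out 32 °C library lay above all 6 cooler libraries, for isoforms chosen by the other 8 libraries (red bars) and all tested (grey bars). Right, median difference of 2 left-out libraries in log2(FPKM + 1) for each of 9 pairs per comparison, chosen isoforms in red and all tested in grey; no red point reaches the 1.5 of the dashed line.

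In the fit across all isoforms, the members' counts of calls restate the choice in part and nothing is read from them. The test was limma's moderated test, two-sided, with Benjamini-Hochberg adjustment and calls at an adjusted p below 0.05. Of the 200 members 31 were called higher at 32 than at 27 °C, against 0.0722% of all tested isoforms. For 32 against 22 °C 68 members were called higher, against 0.908% of all, and these include the 31. For the upper minus the lower step 7 members were called above 0, against 0.0702% of all. For 27 against 22 °C, where the lower step was held within 0.5, limma called 0 members at an adjusted p below 0.05, against 0.587% of all tested isoforms, and 0 at an unadjusted p below 0.05, against 15.3% of all. At an unadjusted p below 0.05, 186 members were called higher at 32 than at 27 °C, against 4.89% of all.

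The calls for 32 against 27 °C covered 15 of the 28 members at 0 in all cooler libraries, 9 of the 103 at 0 in some and 7 of the 69 above 0 in all 6. In isoforms constant at 0 in 6 of 9 libraries the residual spread comes from the 3 libraries at 32 °C alone. The standard error of the difference had a median of 0.25 on the log2(FPKM + 1) scale in the 31 called members and of 0.52 in the others. Without replicate 1, 2 or 3 at 32 °C 14, 1 and 1 members were called, with 123, 21 and 17 calls of higher abundance over all isoforms tested. Only 135 members were tested in these fits, since 65 were below 1 FPKM in all 6 cooler libraries and then reached it in only 2. These 65 were the 28 at 0 in all cooler libraries, 34 at 0 in some and 3 above 0 in all 6. With the filter lowered to 2 libraries all 200 were tested and 51, 22 and 19 were called, with 292, 75 and 76 such calls over all isoforms.

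Membership itself depended on single libraries in most members. With each of the 9 libraries left out in turn, and the filter lowered to 2 libraries, 56 of the 200 met the conditions every time. These included 26 of the 103 members at 0 in some cooler libraries and 7 of the 69 above 0 in all 6. The other 23 were at 0 in all cooler libraries, where leaving out a cooler library cannot change the result, so their count is not set beside those of the other classes. Leaving out a cooler library may also change little in members at 0 in 5 of them, some of which are among the 26. The 26 and the 7 are therefore not compared. Isoform_40783 was among the 56, and isoform_17764 met the conditions in 8 of the 9. The median mean at 32 °C of the 56 was 6.14 FPKM.

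The nearest values on either side of each threshold were close. The last member by upper step had 1.5533 and the first left out by the limit of 200 had 1.5513. The latter was listed at 0 in all cooler libraries and stood at 2.35, 2.63 and 1.07 FPKM at 32 °C. The largest upper step that fell short of 1.5 was 1.4999, in an isoform that met the other conditions. The largest lower step inside was 0.4986, and the nearest outside was 0.5026. The member with the smallest margin had 22.03 FPKM in its lowest library at 32 °C and 22.02 FPKM in its highest cooler library. The isoform that missed by least had 39.22 FPKM against 39.25.

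Isoforms that followed the mirrored pattern were fewer on this scale. With the sign of the upper step and the order of libraries reversed, 112 isoforms met the conditions, against 214. After rescaling to TPM the mirrored count was 58, against 191. With the 2 steps exchanged, so that an isoform was higher by 27 °C and then level, 388 met them, and 1026 and 1118 did with a pseudocount of 0.1 and 0.01. With a pseudocount of 0.01 the first pair of counts was 282 and 274, so their order turned with the treatment of values near 0. No test compared these counts.

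The isoform numbers of the members were scattered over the table's range, from 612 to 389064. Split by number into 10 blocks of 10111 or 10112 tested isoforms, the table held between 14 and 40 members per block. The 40 lay among numbers 22777 to 51701, where the mirrored pattern had 13 isoforms. Over 34013 pairs of tested isoforms with consecutive numbers the correlation of log2(FPKM + 1) across the 9 libraries averaged 0.0161. Of the 143 tested isoforms numbered directly beside a member 0 were members, and their median upper step was -0.01.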

How the data were processed

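RNA sequencing libraries of eyestalk were sequenced from total RNA with DNBSEQ technology, per the labels' protocols. The authors deposited FPKM values with 1 column per library, per the file headers. Bowtie2, an aligner, and RSEM, which estimates abundance and can share reads between similar isoforms, are named per the submitters' processing notes. Tool versions, the transcript set and the genome build are not given in these sources. FPKM depends on the library total, so a few abundant transcripts shift all others. Depth is unknown; summed FPKM ran from 1704917 to 2227273 per library. No 2 libraries held identical values, and 0 columns were left unused.

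Isoforms with at least 1 FPKM in 3 of the 9 libraries were kept. Values were taken as log2(FPKM + 1), and all 9 libraries were fitted together with limma 3.58.1 (R 4.3.3), with variance trended on abundance. Changes on this scale are understated near 1 FPKM. The fit and the conditions were also run on simulated data, with normal noise of less spread than the real values. The isoforms raised there were not near 0, so nothing is drawn from it for members near 0. Alternatives with the filter at 2 libraries, and the pairs of left-out libraries, were added after seeing the data. The members, conditions and comparisons were chosen with earlier results of these data known. Identifiers were limited to 2, the largest upper step among members at 0 in all cooler libraries and among those above 0 in all; others, the next 3 of each kind, the most abundant member and those nearest each threshold, are given without one.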

Additional observations from a re-analysis of the deposited data

How the results depend on the processing

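The number of isoforms that met the conditions was 106 with a minimum of 5 FPKM in 3 libraries, against 214, and stayed within 1.5 times of it under both other pseudocounts, no filter and the 3 scalings (182 to 291). It ran from 227 to 512 with a library left out, the highest without replicate 1 at 32 °C. With the filter also lowered to 2 libraries it was 769, 442 and 510 without replicates 1, 2 and 3 at 32 °C. Of the 200 members 124 met the conditions with a pseudocount of 0.1, 108 with 0.01, 103 with the 5 FPKM minimum, which 103 of the members pass, and 114 to 161 with a library left out. Without replicate 3 at 27 °C 132 met them under either filter. Members called for 32 against 27 °C, 32 against 22 °C and the difference between steps, from 31, 68 and 7, became 17, 43 and 3 with a pseudocount of 0.1, 9, 23 and 0 with 0.01, and 8, 33 and 0 with the 5 FPKM minimum. Calls of higher abundance over all isoforms tested, from 73, 918 and 71, were 66, 757 and 82, then 82, 709 and 97, then 28, 684 and 29 in the same fits. The last count of members was 4 with no filter, against 46 over all. With only the 2 temperatures compared in the fit the first 2 were 8 and 32, against 36 and 272 over all. With a library left out the 3 counts ran from 1 to 22, 5 to 60 and 0 to 5, against 17 to 123, 149 to 627 and 29 to 176 over all. With the 2-library filter as well, the first was 13, 19 and 18 without replicates 1, 2 and 3 at 22 °C, 20, 16 and 17 without those at 27 °C, and 51, 22 and 19 without those at 32 °C. The second was 26, 24 and 35 without those at 22 °C, 37 and 38 without replicates 2 and 3 at 32 °C, and 50 to 66 otherwise. The third ran from 3 to 18, the highest without replicate 1 at 32 °C. Over all isoforms these ran from 42 to 292, 225 to 665 and 59 to 251. No member was called for 27 against 22 °C in any of these fits.

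The replicate block gave 5, 30 and 1 calls, against 11, 170 and 19 over all isoforms. Deviations from the group mean correlated at -0.0190 to 0.0525 between libraries with the same number, so the numbers were not read as pairs. In the pairs of left-out libraries the middle median difference of 32 minus 27 °C was 0.22. It was 0.0101 with the filter lowered to 2 libraries, where more of the chosen isoforms were tied. For 27 minus 22 °C it was 0.09, and 0 after median-of-ratios scaling. The causes were not tested. Median-of-ratios scaling moved the median of all tested isoforms from 0.10 to -0.01 for 32 against 22 °C and from 0.09 to -0.03 for 27 against 22 °C. Read depth is unknown, which limits every value near 0.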
